A study of Mus musculus with 27 samples.

Results

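Cortex that had lost Bcl11a and Bcl11b together was compared with control cortex at embryonic day (E) 13.5, by sequencing total RNA of dissected mouse cortex. The comparison used 6 of the 27 libraries of the series, 3 from Bcl11ab-DCKO embryos and 3 from control embryos. Of 34745 genes in the count table, 14947 had enough counts to be tested. The Bcl11ab-DCKO genotype is given as Emx1-Cre; Bcl11aFlox/Flox; Bcl11bFlox/Flox, so that both copies of each gene carry sites for Cre recombinase. The control genotype is given as wildtype, and the labels do not say whether any control embryo carried Cre or a floxed allele. The strain is C57BL/6 throughout. Values from 4 further groups are set beside these where they help: Bcl11a-CKO cortex (Emx1-Cre; Bcl11aFlox/Flox) at E13.5, with 3 libraries, and control, Bcl11a-CKO and Bcl11ab-DCKO cortex at E15.5, of the same genotypes. Cre driven by Emx1 is active in progenitors of the dorsal forebrain wall and is inherited by the cells they make. Interneurons that migrate in from the ventral forebrain, vessels, microglia, blood and meninges do not derive from those progenitors and keep both genes. The question of the study was what the 2 factors do while cortical projection neurons are made and mature.

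Bcl11a and Bcl11b, also called Ctip1 and Ctip2, are closely related zinc-finger proteins that bind DNA, recruit corepressors such as the NuRD complex, and can join the BAF chromatin remodelling complex. In the cortex, Bcl11b is best known for the differentiation of corticospinal neurons, the deep-layer neurons that project to the spinal cord, and Bcl11a for the choice between deep-layer fates and for migration. At E13.5 the cortical wall holds radial glia, the intermediate progenitors that arise from them, and young deep-layer neurons.

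Levels below are in CPM, a gene's counts relative to the total of its library, after scaling by the trimmed mean of M-values (TMM), listed in the order of replicates 1, 2 and 3. A gene is said to have risen or fallen where its Benjamini-Hochberg adjusted p in edgeR's quasi-likelihood test, over all genes tested, was under 0.05. A log2 fold change is Bcl11ab-DCKO minus control, with its standard error. Each group came from 3 mice by the design text, so a p-value at E13.5 reflects variation between embryos. The spread behind it was estimated over all 6 embryonic groups, at both ages, and not from the 6 libraries compared alone. Genes were named by the size of their change, over all genes and within lists of related genes, apart from Nfia, Pou3f3, Nr2f1, Kcnc1, Kcnh2 and Map1b, which were chosen after their values were seen.

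The deleted genes were read first. Bcl11b (ENSMUSG00000048251, chromosome 12, 107910403 to 108003602, mm10) stood at 191, 328 and 149 CPM in the control libraries and at 57.6, 45 and 49.4 CPM in the Bcl11ab-DCKO libraries, a log2 fold change of -2.14 ± 0.25 (adjusted p = 0.000121). Bcl11a (ENSMUSG00000000861, chromosome 11, 24078056 to 24174123, mm10) stood at 428, 525 and 509 CPM and at 281, 306 and 312 CPM (-0.70 ± 0.11, adjusted p = 0.00101). Both genes were thus lower in every library labelled as their deletion than in any control, and transcript of each was still counted in every Bcl11ab-DCKO library. Which exons are removed is not given in the sources used here. In bulk RNA, transcript left over in recombined cells cannot be told apart from transcript of cells that Cre does not reach. Likewise, for every gene below, fewer cells of a type and less RNA per cell cannot be told apart.

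The libraries held 5022955 to 6738798 counts, and no library held the same values as another of its group. The first principal component of the embryonic libraries (58.4% of the variance) separated the ages, and of the 6 libraries compared, control 2 lay nearest to E15.5 on it. On the second (12.4%), the 3 control libraries, the 3 Bcl11a-CKO libraries and the 3 Bcl11ab-DCKO libraries formed non-overlapping ranges in that order. By sex-linked genes, the controls were 1 female and 2 males and the Bcl11ab-DCKO embryos 2 females and 1 male. Among genes within 10 Mb of the floxed genes, 7.61% of 92 around Bcl11a and 8.76% of 137 around Bcl11b were called, beside 7.05% of all genes tested.

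Loss of both factors changed 1054 of the 14947 genes tested, which is 7.05% of them. Of these, 569 rose (3.81%) and 485 fell (3.24%), and 527 and 458 of them are annotated as protein-coding. The changes were of like size in both directions, with a median absolute log2 fold change of 0.80 among risen and among fallen genes. At least a 2-fold change was seen in 213 risen and 196 fallen genes, and at least a 4-fold change in 81 and 68. Of the 569 risen genes 568, and of the 485 fallen genes 483, had no overlap between the libraries of the groups. A lack of overlap in a called gene therefore adds little to its call. The count rests in part on single libraries: it was 614 without control 2 (360 rose, 254 fell), 670 without Bcl11ab-DCKO 3 and 692 without control 3. Without Bcl11ab-DCKO 2, 299 genes fell in place of 485. The titles of control 1 and Bcl11ab-DCKO 1 end differently from the others, for a reason the labels do not give. With only the other libraries at E13.5, 2 against 2, 1003 genes were called (486 rose, 517 fell). A core of 478 genes, 278 risen and 200 fallen, was called whichever library was left out.

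**Figure D1:**
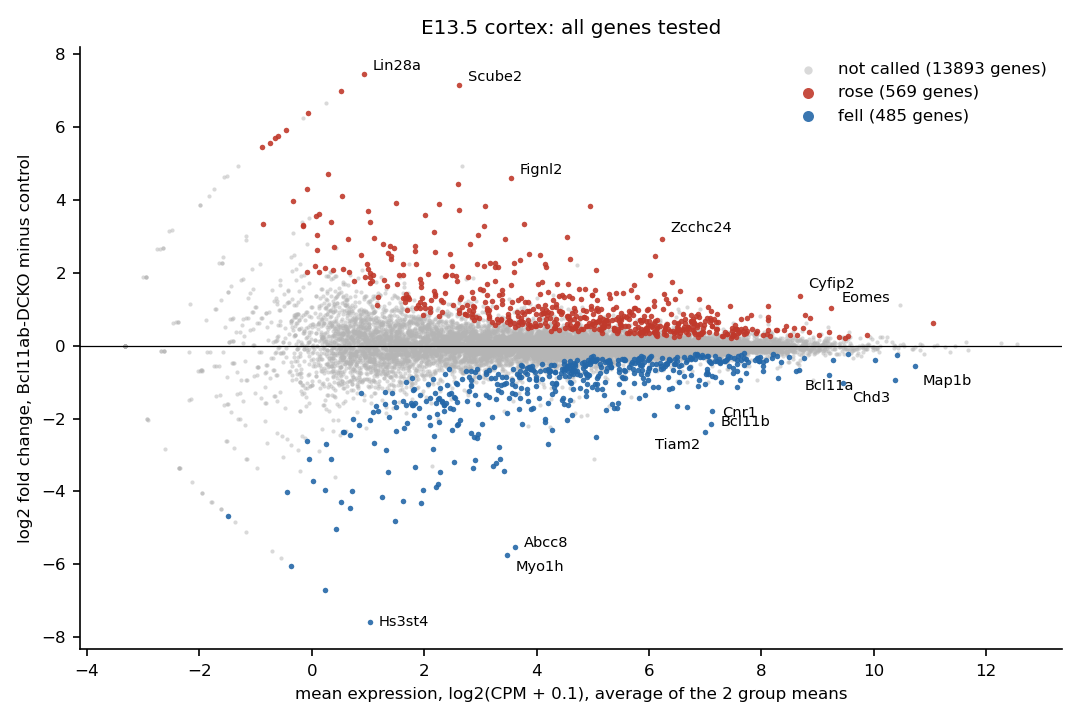
Each point is 1 of the 14947 genes tested, with its mean expression on the x axis as log2(CPM + 0.1) and its log2 fold change, Bcl11ab-DCKO minus control, on the y axis; red points are the 569 genes that rose and blue points the 485 that fell. Called genes spread to both sides at every expression level, and Bcl11b and Bcl11a lie among the well expressed genes that fell; the slanted lines of points at the left are genes with no count in 1 group, whose fitted fold change depends on the prior count of the fit.

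The Bcl11a zinc fingers are known to bind the hexamer TGACCA, so promoters were searched for it on either strand (TGACCA or TGGTCA). The windows run from 250 bases before to 50 bases after each RefSeq start (GRCm38.p6), and 10486 of the 14947 genes had one. The hexamer stood in 10.6% of 13505 promoters of all genes tested, in 12.2% of 573 promoters of risen genes and in 6.69% of 508 promoters of fallen genes. These shares are descriptions, since 300 bases hold a hexamer by composition alone and enhancers lie elsewhere. Of the 50 genes named for the size of their change, 38 had a promoter in the table. Promoters on a single chromosome were counted there but not searched. By gene, 12.6% of all those with a promoter held the hexamer anywhere in the window. At least 5 of the 38 genes held it before the start, which is not read as an excess over that share. Below are windows of 3 of these, a vesicular glutamate transporter and an AAA ATPase gene that rose and a Rac activator that fell, 5′ to 3′ on the strand of the gene, with the hexamer in capitals. They lie at chr7:51621751-51621816 (+), chr15:101054404-101054469 (-) and chr17:3396957-3397000 (+), with the hexamer 49, 40 and 242 bases before the start. Fignl2 held another hexamer 206 bases before its start, outside the stretch shown.
Slc17a6: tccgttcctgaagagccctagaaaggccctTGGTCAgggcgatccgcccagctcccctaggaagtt
Fignl2: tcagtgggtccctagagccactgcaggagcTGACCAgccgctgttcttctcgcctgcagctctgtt
Tiam2: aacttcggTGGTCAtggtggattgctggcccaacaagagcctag
Fignl2, with the hexamer nearest to its start of the 3, went from 1.36, 0.378 and 0.945 CPM to 21.4, 21.9 and 23.3 CPM, and Slc17a6 from 80.5, 66.7 and 58.4 to 156, 159.5 and 187 CPM. Tiam2, whose protein activates Rac at growing neurites, went the other way, from 191, 293 and 155 CPM to 53.1, 28.6 and 42.8 CPM (-2.37 ± 0.39, adjusted p = 0.00158).

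Genes that mark corticofugal neurons, the deep-layer neurons that project out of the cortex, fell in part. Of 24 tested members of that list 10 fell and none rose, with a median log2 fold change of -0.63, against -0.01 over all genes tested and the 3.24% of all genes that fell. Ntsr1, the neurotensin receptor used as a marker of corticothalamic neurons, stood at 5.65, 5.1 and 2.83 CPM in control and at 0.543, 0.289 and 0.361 CPM in Bcl11ab-DCKO cortex (-3.47 ± 0.39, adjusted p = 8.69e-05). Pcp4, a calmodulin-binding peptide of deep-layer neurons, went from 10.3, 18.7 and 10.2 to 4.17, 2.45 and 2.35 CPM (-2.14 ± 0.32, adjusted p = 0.00082). The counts of both genes were low, and the groups did not overlap in either, as in nearly all called genes. Hs3st4, a heparan sulfate sulfotransferase of layer 6 neurons, had 62 counts over the 3 controls and 0 over the 3 Bcl11ab-DCKO libraries, at least 23.6-fold lower against a floor of 3 counts over the group (adjusted p = 0.00483). That call was lost where only the 6 libraries were fitted, with or without a term for the ending of the library titles. The nuclear factor I genes, which promote maturation of deep-layer neurons and glia, fell less far and at high expression. Nfib went from 759, 822 and 663 to 494, 379 and 404 CPM (-0.81 ± 0.14) and Nfia from 337, 341 and 294 to 228, 163 and 207 CPM (-0.70 ± 0.11). Tbr1, the T-box factor of layer 6 neurons, did not pass the test, with means of 346 and 411 CPM (0.25 ± 0.13, adjusted p = 0.316).

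The upper-layer and callosal list split, with 4 risen and 4 fallen of 19 tested members (median 0.12). The POU factors of upper-layer neurons rose. Pou3f2 (Brn2) went from 110.3, 106 and 96.7 to 159, 163 and 190.1 CPM (0.71 ± 0.10, adjusted p = 0.000337) and Pou3f3 (Brn1) from 678, 660.0 and 695 to 760.0, 828 and 839 CPM (0.26 ± 0.06). All 3 libraries of each group stood apart in these genes, as in nearly all called genes. The call of Pou3f3 was lost without control 2, Bcl11ab-DCKO 2 or Bcl11ab-DCKO 3. Without Bcl11ab-DCKO 3 the list held 2 risen and 2 fallen members, and without control 2 it held 2 risen.

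Basic helix-loop-helix genes, which drive progenitors into neurogenesis, mostly moved upward where they moved. Of 21 tested members of the proneural and Id list 5 rose and 1 fell (median 0.14). The best supported was Nhlh2, a factor of newly born neurons, at 42.1, 27.4 and 30.4 CPM in control and 54.3, 59.6 and 56.1 CPM in Bcl11ab-DCKO cortex (0.77 ± 0.14, adjusted p = 0.00303). The others were smaller or less even: the risen count was 1 without Bcl11ab-DCKO 3, 2 without control 2 or control 3, and 3 without Bcl11ab-DCKO 1 or 2. The fallen member lost its call without control 2 or Bcl11ab-DCKO 3. Id4 and Tcf4, the best measured members not called, had log2 fold changes of -0.17 ± 0.16 and -0.11 ± 0.10.

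Regional patterning factors, the homeobox and related genes that give forebrain territories their identity, had 7 risen and 1 fallen of 29 tested members (median 0.14). Barhl2, a homeobox factor of the diencephalon and retina, went from 0.39, 0.378 and 1.89 CPM to 6.52, 7.94 and 9.2 CPM (3.12 ± 0.56, adjusted p = 0.00361). Uncx, a homeobox factor of thalamic and midbrain progenitors and of somites, went from 2.92, 2.83 and 6.99 CPM to 21.9, 20.8 and 22.4 CPM (2.34 ± 0.33, adjusted p = 0.00082). Both were low in every control library and several times higher in every Bcl11ab-DCKO library. Markers of the thalamus summed to 747 to 998 CPM in control and 1080.5 to 1153 CPM in Bcl11ab-DCKO libraries. Most of these counts are from Lhx2, which dorsal cortex also expresses. Of 9 thalamus markers 1 fell and 1 rose, Slc17a6, which was also listed as a marker of excitatory neurons. The part of thalamic tissue in these rises was not tested. Nr2f1 (COUP-TFI), which sets the caudal identity of cortical areas, went from 403, 274 and 359.9 to 584, 575 and 611 CPM (0.77 ± 0.14). Pbx3, a cofactor of homeobox proteins, went from 13.2, 10.8 and 11.9 to 22.3, 20.2 and 24.4 CPM (0.89 ± 0.14). Dmrt3, a factor of the medial cortical wall, was the member that fell, from 43.1, 36.3 and 47 to 15.8, 17.9 and 15 CPM (-1.37 ± 0.20, adjusted p = 0.000561). Lhx2, the selector gene of cortical identity, did not pass the test (0.23 ± 0.11, adjusted p = 0.234).

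Signalling genes changed member by member, and no signalling list had more than 6 called members. These lists had 12.5% to 25% of their tested members called, beside 7.05% of all genes tested. In the Hedgehog list, 2 rose and 1 fell of 17 tested (median -0.13). Scube2, a secreted protein that helps release Hedgehog from the cells that make it, had 1 count over the 3 controls and 216 counts over the 3 Bcl11ab-DCKO libraries, a ratio of 189 (95% exact interval 33.5 to 7489.6) that covers counting error only (adjusted p = 6.11e-07). It stood at 11.2, 11.3 and 13.7 CPM in the Bcl11ab-DCKO libraries. The other calls of that list were lost with 1 library out: 1 rose without control 2, and 1 rose and none fell without control 3, Bcl11ab-DCKO 1 or Bcl11ab-DCKO 3.

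In the Wnt list 3 rose and 3 fell of 35 tested (median -0.01). Nkd1, a feedback inhibitor that is itself a target of Wnt signalling, went from 50.6, 56.8 and 45.5 to 136, 114 and 125 CPM (1.29 ± 0.14, adjusted p = 6.35e-05). The ligand Wnt5b went from 11.7, 12.3 and 13.8 to 26.5, 29.9 and 27.1 CPM (1.14 ± 0.18) and the receptor Fzd2 rose by a smaller amount (0.41 ± 0.09). Rspo3, a secreted enhancer of Wnt signalling made at the medial edge of the cortex, went from 7.79, 9.07 and 6.23 to 1.81, 2.02 and 1.44 CPM (-2.10 ± 0.45, adjusted p = 0.0109), and it alone of the fallen members was called without control 2 or without Bcl11ab-DCKO 3.

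Notch signalling holds progenitors back from differentiation, and the members of its list differ in their roles in it. In that list 5 rose and none fell of 27 tested (median 0.03). Dll3 and some other risen members were also on the list of intermediate progenitor markers read below. Dll3, a divergent ligand that acts within the cell that makes it, went from 59, 35.9 and 44.2 to 114, 106 and 116 CPM (1.27 ± 0.16, adjusted p = 0.000247). The coactivator Maml3 went from 48.1, 37.8 and 44.4 to 71.4, 72.5 and 69.8 CPM (0.71 ± 0.11), and the receptor Notch1 from 543, 472 and 539 to 656, 667 and 679 CPM (0.37 ± 0.08, adjusted p = 0.00829). Those 3 genes remained called in each fit that left out a library, and they made up the whole count without control 2 or Bcl11ab-DCKO 2. Without control 1, 1 member fell.

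In the FGF list 2 rose and 4 fell of 29 tested (median 0.02). The receptor Fgfr3, which is graded along the cortex, went from 219, 194 and 240.3 to 145, 144 and 136 CPM (-0.62 ± 0.13) and the inhibitor Spred2 from 56.7, 67 and 56.5 to 31.2, 34.1 and 31.4 CPM (-0.90 ± 0.10, adjusted p = 6.11e-05). Il17rd (Sef), another inhibitor of the same pathway, went the other way, from 14, 14.2 and 12.8 to 39.3, 41.6 and 40.2 CPM (1.56 ± 0.17, adjusted p = 5.56e-05). Outside the list, Fgfbp3, which releases FGFs from the matrix, went from 38.4, 20.4 and 21.9 to 89.3, 118 and 101 CPM (1.94 ± 0.18, adjusted p = 1.97e-05). The risen count of the list was 1 without control 2, Bcl11ab-DCKO 2 or Bcl11ab-DCKO 3.

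In the BMP and TGF-beta list 3 rose and 2 fell of 40 tested (median 0.01). The ligands Bmp3 (-2.84 ± 0.50) and Tgfb2 (-1.21 ± 0.25) fell. The receptor Bmpr1b went from 21.6, 21.5 and 26.3 to 43.5, 44.9 and 47.3 CPM (0.97 ± 0.16), its effector Smad1 rose (0.47 ± 0.10), and the antagonist follistatin (Fst) went from 3.31, 2.27 and 3.21 to 13.9, 11.7 and 15 CPM (2.20 ± 0.18, adjusted p = 8.02e-06). In the retinoic acid list 2 rose and 1 fell of 12 tested (median 0.19). Without Bcl11ab-DCKO 3 none of these calls held, the fall was also lost without control 2, control 3 or Bcl11ab-DCKO 2, and 1 rose without control 1, control 2 or Bcl11ab-DCKO 2.

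**Figure D2:**
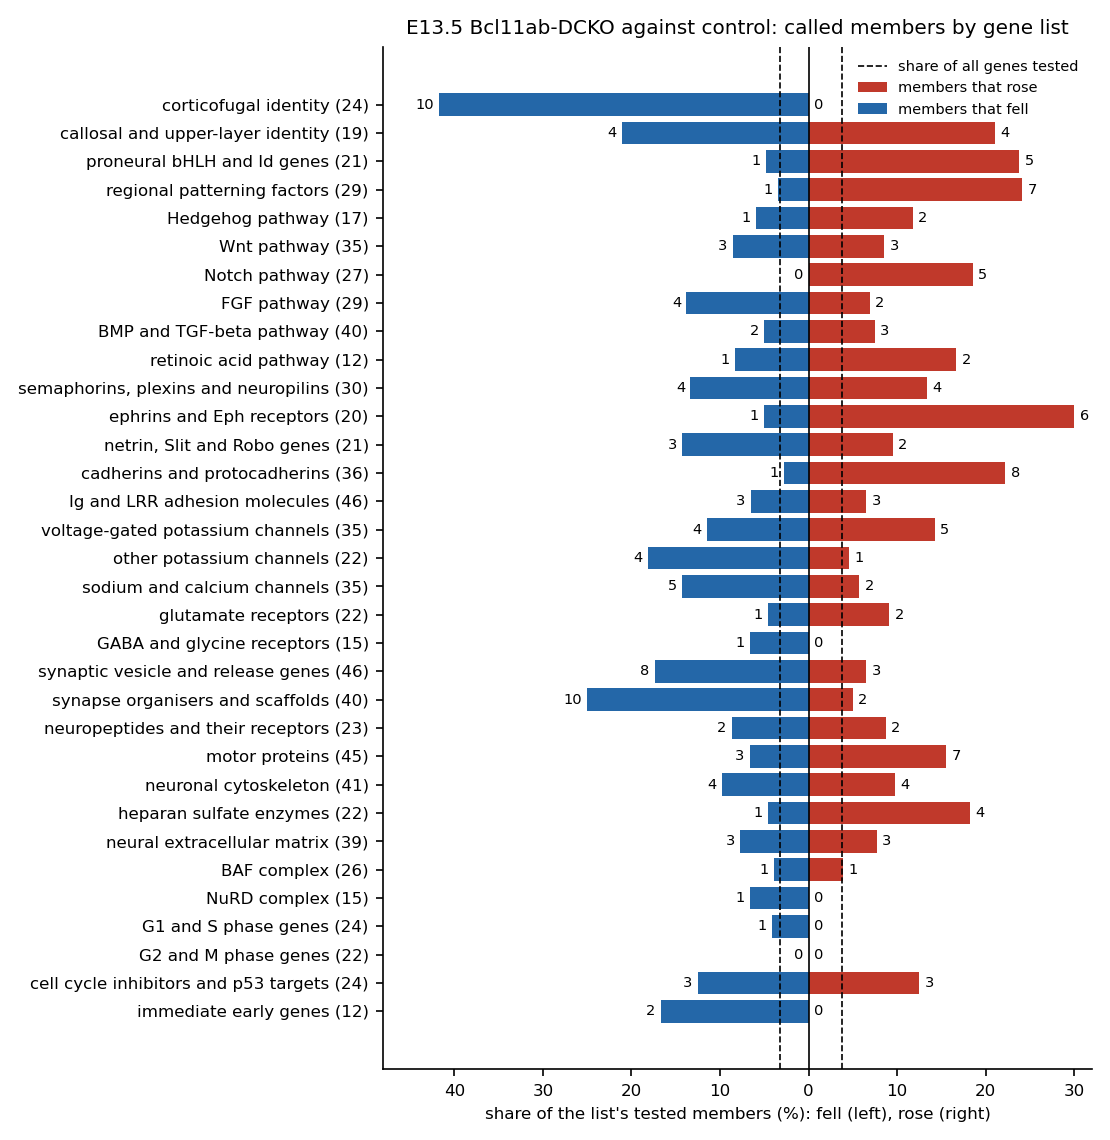
Bars give the share of each list's tested members that rose (red, to the right) or fell (blue, to the left) in Bcl11ab-DCKO against control, in percent, with the number of members at the bar's end and the number tested in parentheses; dashed lines mark the shares of all genes tested, 3.81% risen and 3.24% fallen. Of the lists drawn, the corticofugal list has the longest bar to the left (10 of 24) and none to the right, while the ephrin and Eph receptor list has the longest to the right (6 of 20).

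Axon guidance genes changed in ligands and receptors alike. Among semaphorins, plexins and neuropilins 4 rose and 4 fell of 30 tested (median 0.10). The receptor Nrp1, through which class 3 semaphorins repel or attract axons, went from 95.1, 117 and 83.5 to 53.6, 36.2 and 45.1 CPM (-1.14 ± 0.19, adjusted p = 0.00205). Its ligand Sema3c, made by deep cortical neurons and guidepost cells, went from 21.8, 21 and 20.2 to 70.7, 42.9 and 56.8 CPM (1.43 ± 0.24, adjusted p = 0.00169). Receptor and ligand thus moved in opposite directions. The membrane semaphorin Sema4d fell as well (-0.74 ± 0.11), and its relative Sema6a rose (0.67 ± 0.13). Without Bcl11ab-DCKO 3 the list held 2 risen and 2 fallen members.

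Ephrins and Eph receptors, which guide axons and sort cells by contact, had 6 risen and 1 fallen of 20 tested members (median 0.08). The receptor Epha3 went from 153, 173 and 151 to 280.4, 245 and 290.2 CPM (0.77 ± 0.13, adjusted p = 0.00158), and the receptor Ephb1 from 17.5, 19.6 and 18.9 to 30.4, 33.1 and 35 CPM (0.81 ± 0.14, adjusted p = 0.00209). The ligand Efna3 rose as well (0.99 ± 0.13). The fallen member, Ephb2 (-0.40 ± 0.11), lost its call whichever library was left out.

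Of 21 tested netrin, Slit and Robo genes 2 rose and 3 fell (median 0.11). Slit1, a repellent ligand, went from 125, 129 and 121 to 70.8, 64.2 and 77.4 CPM (-0.82 ± 0.15, adjusted p = 0.00369), and Ntng2, a membrane-anchored netrin, from 75.6, 62.9 and 56.9 to 32.6, 19.6 and 29.2 CPM (-1.27 ± 0.25). The netrin receptor Unc5c went from 2.14, 2.64 and 1.51 to 8.7, 6.5 and 9.02 CPM (1.92 ± 0.22, adjusted p = 9.54e-05), and it was the 1 risen member left without control 2, control 3 or Bcl11ab-DCKO 3.

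Cadherins and protocadherins, the calcium-dependent adhesion molecules, mostly rose where they changed: 8 rose and 1 fell of 36 tested (median 0.12), beside 3.81% and 3.24% of all genes. Cdh4, or R-cadherin, went from 79.9, 75.9 and 74.4 to 141, 129.8 and 145 CPM (0.85 ± 0.11, adjusted p = 0.000334). Cdh22 went from 9.35, 4.53 and 4.53 to 29, 32.5 and 26.2 CPM (2.25 ± 0.25, adjusted p = 7.69e-05) and Cdh6 from 12.1, 12.8 and 14.7 to 20.5, 23.8 and 29.9 CPM (0.90 ± 0.15). The groups stood apart in each of them, as in nearly all called genes. Cdh10 rose as well (0.85 ± 0.17). Without control 3 or without Bcl11ab-DCKO 1, 5 members rose. The fallen member lost its call without control 1, control 2, Bcl11ab-DCKO 2 or Bcl11ab-DCKO 3. Immunoglobulin and leucine-rich repeat adhesion molecules had 3 risen and 3 fallen of 46 tested (median -0.13), of which Flrt2, a ligand of Unc5 receptors and latrophilins, fell from 76, 95.6 and 78.4 to 44.4, 38.8 and 47.4 CPM (-0.94 ± 0.13, adjusted p = 0.000509). The risen count of that list was 1 without control 3, Bcl11ab-DCKO 2 or Bcl11ab-DCKO 3.

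Ion channel genes changed in both directions, and the fallen ones include several that mature neurons use. Of 35 tested voltage-gated potassium channel genes 5 rose and 4 fell (median -0.16). Kcnv1, a silent subunit that modifies other channels, went from 3.9, 5.29 and 3.78 CPM in control to 0.181, 0.289 and 0.18 CPM in Bcl11ab-DCKO cortex (-4.16 ± 0.55, adjusted p = 0.000311). Kcnh3, a channel of forebrain neurons, went from 12.3, 15.1 and 11.3 to 2.36, 2.89 and 1.26 CPM (-2.54 ± 0.37). In the other direction, the fast delayed rectifier Kcnc1 went from 17.3, 20.8 and 13.8 to 42.9, 39.7 and 53.9 CPM (1.39 ± 0.15, adjusted p = 5.56e-05), and Kcnh2 (Erg1) from 11.1, 11.1 and 6.99 to 28.8, 28 and 24.4 CPM (1.47 ± 0.17, adjusted p = 0.000121). Without control 2 or control 3 the risen count was 3.

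Of 22 other potassium channel genes 1 rose and 4 fell (median -0.40). Abcc8, the sulfonylurea receptor that pairs with an inward rectifier to sense ATP, went from 16.4, 41.9 and 13.2 to 0.906, 0.433 and 0.18 CPM, with control 2 well above the other controls (-5.52 ± 0.87, adjusted p = 0.00127). The sodium-activated channel Kcnt1 also fell (-1.57 ± 0.29). Without control 2 or Bcl11ab-DCKO 2, 2 members fell. The risen count was 0 without control 2 or control 3 and 2 without control 1. Of 35 sodium and calcium channel genes 2 rose and 5 fell (median -0.10). Cacna1e, the R-type calcium channel, went from 51.2, 74.2 and 44.2 to 13, 8.8 and 7.94 CPM (-2.51 ± 0.32, adjusted p = 0.000241), and Cacna1g, a T-type channel, from 45.4, 58.4 and 54.6 to 23.4, 20.2 and 18.6 CPM (-1.35 ± 0.20). Scn3a, the embryonic sodium channel of brain, went from 22.6, 24.7 and 22.9 to 44, 42.4 and 53.9 CPM (1.00 ± 0.20). The fallen count was 3 without control 2, control 3 or Bcl11ab-DCKO 3, and Cacna1e and Cacna1g were among the 3 each time.

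Synapse genes gave more falls than rises. Of 46 tested genes of the synaptic vesicle and release machinery 3 rose and 8 fell (median -0.19). The vesicular glutamate transporters, which load vesicles with transmitter, moved apart: Slc17a7 (VGLUT1) went from 90.2, 81.8 and 76.3 to 34.2, 29 and 29.2 CPM (-1.43 ± 0.16, adjusted p = 8.85e-05), while Slc17a6 (VGLUT2) rose, as shown beside its promoter (1.29 ± 0.11, adjusted p = 1.41e-05). Sv2b, a vesicle glycoprotein, went from 16.2, 17.9 and 17.8 to 1.09, 1.73 and 2.71 CPM (-3.22 ± 0.29, adjusted p = 1.41e-05). Doc2b, a calcium sensor of release, fell too (-2.33 ± 0.35). Syt13, a synaptotagmin that does not bind calcium, went from 3.7, 1.89 and 2.27 to 12.3, 14.4 and 10.8 CPM (2.26 ± 0.26, adjusted p = 0.000117). The fallen count was 5 without control 2 or any 1 Bcl11ab-DCKO library and 4 without control 3.

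Of 40 tested synapse organisers and scaffolds 2 rose and 10 fell (median -0.11). Nxph3, a neurexophilin that binds neurexins, went from 5.65, 9.82 and 3.4 to 0.362, 0.577 and 0.902 CPM (-3.32 ± 0.49, adjusted p = 0.000678), and Nptx1, a pentraxin that clusters glutamate receptors, from 11.3, 25.7 and 15.3 to 1.99, 1.88 and 3.79 CPM (-2.78 ± 0.44). The calcium/calmodulin kinases Camk2b (-2.10 ± 0.29) and Camk2a (-1.90 ± 0.39) and their relative Camkv (-1.44 ± 0.16) fell together. The fallen count was 6 without control 2, Bcl11ab-DCKO 1 or Bcl11ab-DCKO 2, and the risen count was 1 without any one of these or control 1. Of the receptors themselves, 2 rose and 1 fell of 22 glutamate receptor genes (13.6% called, median -0.08). None rose and 1 fell of 15 GABA and glycine receptor genes (6.67% called, median -0.09). The share called over all genes tested was 7.05%. Without control 1 or Bcl11ab-DCKO 3, 1 glutamate receptor gene rose. Without control 2 the fallen glutamate receptor gene lost its call and 1 GABA or glycine receptor gene rose.

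**Figure D3:**
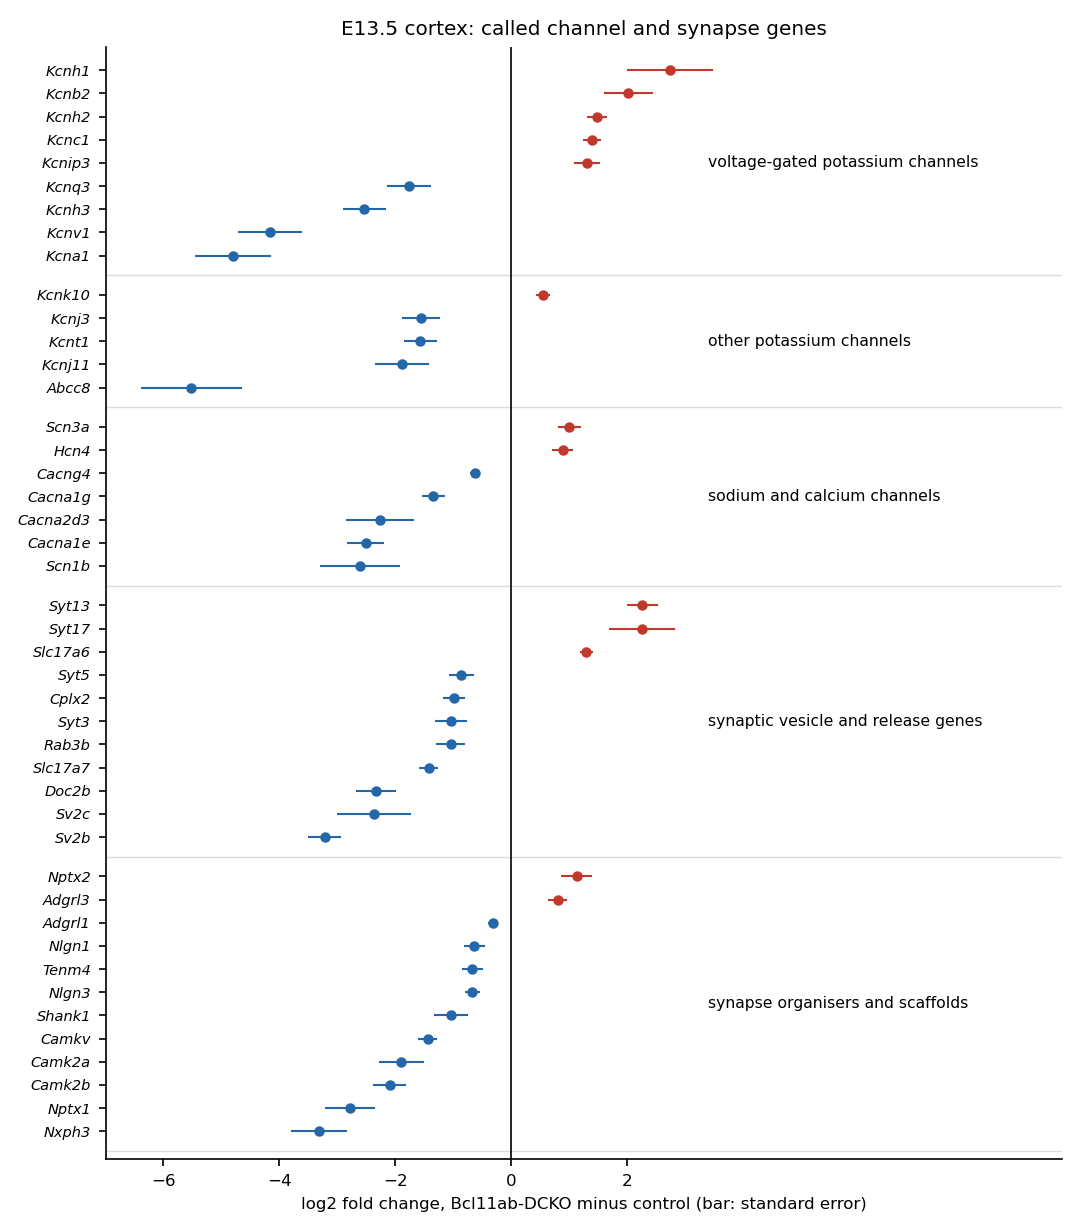
Points give the log2 fold change, Bcl11ab-DCKO minus control, of each called gene in the 3 channel lists and the 2 synapse lists, with bars of 1 standard error on each side, red where the gene rose and blue where it fell, grouped by list. In the lists of vesicle and release genes and of synapse organisers, 8 and 10 points lie to the left of 0 and 3 and 2 to the right.

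Among genes for 2 further kinds of receptor, Cnr1, the CB1 cannabinoid receptor of growing axons, went from 214, 247 and 187 to 67, 57.2 and 63.5 CPM (-1.79 ± 0.11, adjusted p = 6.11e-07), and Gipr, the receptor of an incretin peptide, from 13.2, 16.2 and 10.4 to 1.99, 1.44 and 1.08 CPM (-3.13 ± 0.35, adjusted p = 8.69e-05). All 3 Bcl11ab-DCKO libraries lay far under the lowest control in both. Of 23 tested neuropeptide and neuropeptide receptor genes 2 rose and 2 fell (median 0.00), with Ntsr1 among the fallen. The risen count was 1 without Bcl11ab-DCKO 2 and 0 without control 2, control 3, Bcl11ab-DCKO 1 or Bcl11ab-DCKO 3.

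Genes of transport and of the cytoskeleton moved both ways. Of 45 tested motor protein genes 7 rose and 3 fell (median 0.05), beside 3.81% and 3.24% of all genes. Dync1i1, the dynein intermediate chain of neurons, went from 6.62, 12.7 and 6.8 to 1.09, 0.289 and 0.541 CPM (-3.78 ± 0.54, adjusted p = 0.000591). The risen members were smaller in size and better measured. Myo10, a myosin of filopodia, went from 105, 109 and 99.7 to 171, 185 and 214 CPM (0.86 ± 0.10, adjusted p = 7.91e-05), and Myo16 from 11.3, 11 and 6.61 to 33, 28.4 and 32.1 CPM (1.69 ± 0.19, adjusted p = 0.000102).

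Of 41 tested genes of the neuronal cytoskeleton 4 rose and 4 fell (median -0.08). The paired microtubule-associated proteins Map1a and Map1b moved in opposite directions. Map1b, the form of growing axons, went from 1866, 2193 and 1986 to 1309.8, 1428 and 1365 CPM (-0.56 ± 0.07, adjusted p = 0.00015), and Map1a, the form of mature neurons, from 225, 197 and 188 to 348, 348 and 356 CPM (0.79 ± 0.08, adjusted p = 5.56e-05). Dpysl4, a collapsin response mediator, went from 56.7, 44.8 and 46.8 to 136, 131 and 150.3 CPM (1.49 ± 0.13, adjusted p = 1.34e-05). The tubulin Tuba4a (-1.24 ± 0.22) and the neurofilament Nefm (-0.77 ± 0.14) fell, and the best measured members, Tubb5 (-0.12 ± 0.06) and Tuba1a (-0.17 ± 0.14), did not pass the test. Without control 1 or control 3, 2 members rose.

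Matrix genes and the enzymes that sulfate heparan chains were called in 15.4% and 22.7% of tested members, beside 7.05% of all genes tested. Of 39 tested genes of the neural matrix 3 rose and 3 fell (median 0.00). Tenascin R (Tnr) went from 7.01, 11.7 and 6.61 to 0.906, 0.289 and 0.541 CPM (-3.87 ± 0.57, adjusted p = 0.000678), and reelin (Reln), the secreted guide of neuron layering, from 219, 302 and 255 to 143, 122 and 136 CPM (-0.95 ± 0.13, adjusted p = 0.000341). Pappa2, a protease that frees insulin-like growth factors, fell to 0.362, 0 and 1.08 CPM from 4.68, 10.2 and 6.8 CPM (-3.95 ± 0.52). The collagen Col22a1 went from 3.7, 2.08 and 3.97 to 15.2, 14.6 and 17.1 CPM (2.26 ± 0.21, adjusted p = 1.97e-05), and it alone of the risen members was called without control 3 or Bcl11ab-DCKO 1. Of 22 tested heparan sulfate enzymes 4 rose and 1 fell (median -0.08), but 1 rose without control 2 and 2 without Bcl11ab-DCKO 1. Ndst3, which starts sulfation, went from 23.8, 28.5 and 29.1 to 52.2, 49.4 and 64 CPM (1.02 ± 0.19).

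Among the largest rises were genes that were close to silent in control cortex. Lin28a, an RNA-binding protein of early progenitors that blocks let-7 microRNAs, had 0 counts over the 3 controls and 65 over the 3 Bcl11ab-DCKO libraries, at least 18.9-fold higher against a floor of 3 counts over the group (adjusted p = 0.0014). Prtg (protogenin), a surface receptor of the early embryo, went from 1.95, 0.189 and 0.378 to 11.6, 13.3 and 8.66 CPM (3.73 ± 0.49, adjusted p = 0.00027). Myh3, the embryonic myosin heavy chain of muscle, went from 0, 0.567 and 0.945 to 9.6, 13.6 and 11.2 CPM (4.44 ± 0.60). These genes mark early embryonic or non-neural cells in textbook use, and they were named among genes whose groups do not overlap. Rgl3, an activator of Ral, went from 1.36, 1.51 and 0.378 to 13.9, 14.7 and 18.6 CPM (3.84 ± 0.36, adjusted p = 2.15e-05), Klhl35, a Kelch-domain gene, from 3.9, 1.51 and 1.89 to 25.5, 22.2 and 26.2 CPM (3.33 ± 0.29) and the adhesion receptor Adgra1 from 1.56, 1.32 and 1.7 to 13, 14 and 18.2 CPM (3.29 ± 0.25, adjusted p = 5.7e-06). Gjd2, the neuronal gap junction protein connexin 36, went from 3.12, 1.13 and 0.756 to 11.2, 12.6 and 17.3 CPM (3.03 ± 0.31, adjusted p = 4.21e-05).

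Genes that averaged 100 CPM or more in 1 of the groups gave the best measured changes. Zcchc24, a gene of the CCHC zinc-finger family, went from 20.6, 14.2 and 17.2 to 132, 134 and 135 CPM (2.94 ± 0.19, adjusted p = 6.11e-07), and the 3 Bcl11ab-DCKO libraries differed little among themselves. Cyfip2, a subunit of the WAVE complex that drives actin branching, went from 249.5, 238 and 204 to 576, 558 and 642 CPM (1.36 ± 0.08, adjusted p = 6.11e-07). Metrn (meteorin), a secreted factor of neural progenitors, went from 40.9, 31.9 and 43.1 to 124, 140.0 and 128 CPM (1.76 ± 0.14, adjusted p = 8.02e-06). The naming rule required that the groups do not overlap in these genes. Among the fallen were Foxo6, a forkhead factor of the forebrain, from 157, 171 and 138 to 58, 45.2 and 43.5 CPM (-1.67 ± 0.18, adjusted p = 6.18e-05), and the junctophilin Jph4, from 128, 169 and 115 to 49.6, 36.2 and 46 CPM (-1.65 ± 0.24, adjusted p = 0.000711). Both fell in every library, with control 2 the highest control.

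**Figure D4:**
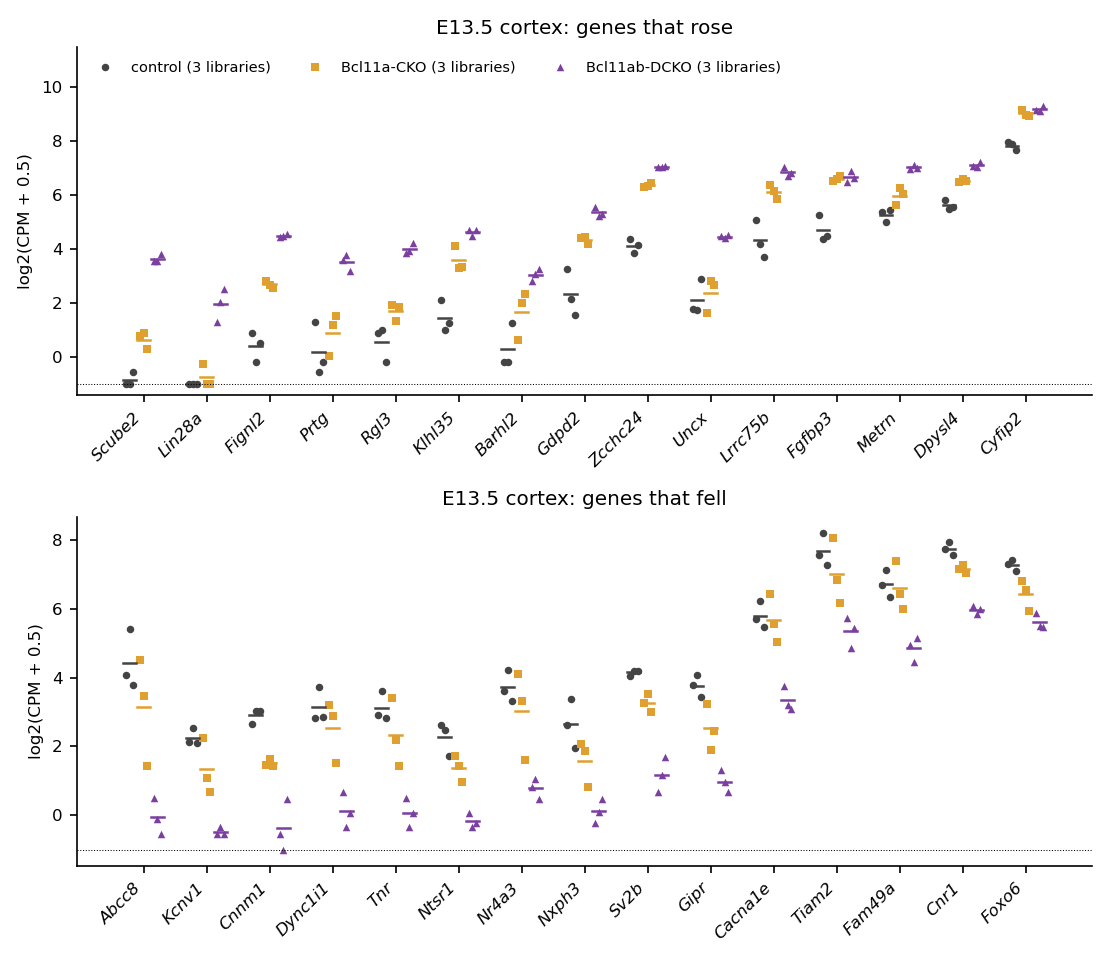
Points show log2(CPM + 0.5) in each of the 3 control, 3 Bcl11a-CKO and 3 Bcl11ab-DCKO libraries at E13.5 for 15 genes that rose and 15 that fell, with a line at each group's mean on that scale and a dotted line at 0 CPM. The genes were chosen among those whose Bcl11ab-DCKO libraries lie clear of the controls, and in many the Bcl11a-CKO libraries lie between them; Lin28a sits at 0 CPM in all 3 controls.

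Marker lists were read for cell types beside these results. Of 12 markers of postmitotic excitatory neurons 1 rose, Slc17a6, and 2 fell (median 0.12), and 1 fell without control 2 or Bcl11ab-DCKO 2. Their sums overlapped, at 2833 to 3636 CPM in control and 3241 to 3707 CPM in Bcl11ab-DCKO libraries. Of 8 subplate markers 1 rose (median 0.14), and 2 rose without control 3. Their sum was 201 to 237 CPM against 240.5 to 258 CPM. Of 14 markers of intermediate progenitors 7 rose and 1 fell (median 0.30), and their summed level ran from 2243 to 2483 CPM in control and from 2949 to 3114 CPM in Bcl11ab-DCKO libraries. Without control 2 or Bcl11ab-DCKO 3, 3 of them rose, and 4 without control 3, Bcl11ab-DCKO 1 or Bcl11ab-DCKO 2. The fall was lost without control 2, control 3, Bcl11ab-DCKO 2 or Bcl11ab-DCKO 3. Eomes (Tbr2), their defining factor, stood at 491, 343 and 355 CPM in control and 814, 765 and 865 CPM in Bcl11ab-DCKO cortex. Of 17 radial glia markers 1 rose and 3 fell, and their sum was 4433 to 4752 CPM against 4311 to 4431 CPM. Aldoc, an enzyme of glycolysis enriched in radial glia and astrocytes, fell from 225, 307 and 248 to 130.4, 102 and 122 CPM (-1.14 ± 0.15) and Hopx, a marker of outer radial glia, from 7.01, 16.1 and 7.74 to 0, 1.73 and 1.44 CPM (-3.20 ± 0.61). Of 6 astrocyte markers 1 rose and 1, Aldoc, fell (median 0.34, with no rise without control 2, control 3 or Bcl11ab-DCKO 3). Their sum was 346 to 422 CPM in control and 235 to 276 CPM in Bcl11ab-DCKO libraries, and Aldoc alone dropped by more than the sum did. Of 10 Cajal-Retzius markers 2 rose and 1, Reln, fell (median 0.25, with 1 risen without control 2, control 3, Bcl11ab-DCKO 1 or Bcl11ab-DCKO 2). Their sum was 360.0 to 416 CPM against 289 to 303 CPM, and Reln alone dropped by more than that. Of 9 markers of the cortical hem and hippocampus 4 fell and none rose, Dmrt3 and Rspo3 among them (median -1.34, and 2 fell without Bcl11ab-DCKO 3). Their sum was 163 to 186 CPM in control and 172 to 199.6 CPM in Bcl11ab-DCKO libraries, which overlap, and 2 members were higher in every Bcl11ab-DCKO library. The part that any change in these cell numbers had in the other results was not tested.

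Markers of cells outside the Emx1 lineage were read as well. None of 14 markers of GABAergic cells of the ganglionic eminences was called, with sums of 196 to 244 CPM in control and 245 to 251 CPM in Bcl11ab-DCKO libraries, higher in every one of the latter. None of 11 microglia (55.3 to 63.9 against 67.3 to 76.3 CPM), 12 endothelium and pericyte (333 to 366 against 350.5 to 417 CPM) or 9 erythroid markers was called. The microglia sum was also higher in every Bcl11ab-DCKO library, and the endothelium and pericyte and erythroid sums were not. Of these, 1 microglia marker rose without Bcl11ab-DCKO 2, and without Bcl11ab-DCKO 3 1 endothelial marker did. Of 10 meningeal markers 1 rose: Ptgds, which makes prostaglandin D2, from 0.584, 1.13 and 0 to 8.15, 9.67 and 8.66 CPM (3.90 ± 0.59). Without Bcl11ab-DCKO 3, 2 meningeal markers rose. The summed meningeal level was 590.4 to 648 CPM in control and 578 to 872 CPM in Bcl11ab-DCKO libraries, of which 2 lay above the controls. Ebf1, a factor of striatal neurons that also marks vessel and meningeal cells, went from 7.79, 4.34 and 7.37 to 24.5, 32.8 and 30.1 CPM (2.16 ± 0.25, adjusted p = 0.000107), the 1 risen gene of 9 striatal markers. Another of them fell (median -0.39), a call lost without control 2, Bcl11ab-DCKO 2 or Bcl11ab-DCKO 3. Of 9 thalamus markers 1 rose, Slc17a6, and 1 fell (median 0.31), the fall lost without Bcl11ab-DCKO 1 or Bcl11ab-DCKO 3. The summed thalamus level was 747 to 998 CPM in control and 1080.5 to 1153 CPM in Bcl11ab-DCKO libraries, higher in every one of these, and most of these counts are from Lhx2, which dorsal cortex also expresses. The part of admixed cells in these rises was not tested.

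Of the cell cycle lists, 4.17% of G1 and S phase genes and 25% of inhibitors and p53 targets were called, beside 7.05% of all genes. None of 22 genes of G2 and mitosis was called (median -0.08), with means of 1024 and 1007 CPM for the proliferation marker Mki67. Of 24 genes of G1 and S phase 1 fell (median -0.15): Cdk6, the kinase that moves cells out of G1, from 93.7, 117 and 129.8 to 52.9, 56 and 41.1 CPM (-1.18 ± 0.16, adjusted p = 0.000402). Cdk4, its relative, had a log2 fold change of 0.04 ± 0.07. Without Bcl11ab-DCKO 2, 2 of that list fell. Of 24 cell cycle inhibitors and p53 targets 3 rose and 3 fell (median 0.11), with Cdkn1a (p21) among the first (0.88 ± 0.18) and Hrk, a promoter of cell death, among the second (-1.73 ± 0.28). The risen count was 1 without control 2 or control 3.

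In the complexes that Bcl11 proteins work with, 6.67% of NuRD and 7.69% of BAF genes were called, near the 7.05% of all genes tested. Of 15 NuRD genes 1 fell (median -0.06): Chd3, the remodeller taken up into NuRD as neurons mature, from 846, 1075 and 907 to 493, 432 and 464 CPM (-1.03 ± 0.13, adjusted p = 0.00027). Its paralogue Chd4, the form of progenitors, had a log2 fold change of 0.02 ± 0.06. Without control 1, 2 NuRD genes fell. Of 26 BAF genes 1 rose and 1 fell (median -0.04), and the fallen one was Smarcd3, from 157, 159 and 145 to 113, 110.3 and 119 CPM (-0.43 ± 0.08, adjusted p = 0.00434). The risen BAF gene lost its call in 8 of 15 alternatives, among them those without control 2, control 3 or any 1 Bcl11ab-DCKO library. Of 12 tested immediate early genes 2 fell: Nr4a3, from 11.7, 18.3 and 9.45 to 1.27, 1.59 and 0.902 CPM (-3.35 ± 0.57, adjusted p = 0.00237), and Fosl2, from 13.2, 13.6 and 11.9 to 1.45, 1.88 and 3.97 CPM (-2.42 ± 0.37, adjusted p = 0.000963). Jun, the best measured of that list, did not pass the test (0.02 ± 0.07), and without control 3 1 member rose.

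To see what removing Bcl11b adds to removing Bcl11a, the Bcl11ab-DCKO was compared directly with the Bcl11a-CKO at E13.5. This comparison called 109 of 14947 genes (0.729%). It shares its Bcl11ab-DCKO libraries with the comparison above, so the values are only set side by side. Prtg was at 0.525, 1.77 and 2.37 CPM in the Bcl11a-CKO and at 11.6, 13.3 and 8.66 CPM in the Bcl11ab-DCKO (Bcl11ab-DCKO minus Bcl11a-CKO 2.83 ± 0.42, adjusted p = 0.00689). Rgl3 stood at 3.33, 2.04 and 3.1 and at 13.9, 14.7 and 18.6 CPM (2.49 ± 0.30, adjusted p = 0.00212), and Uncx at 2.63, 6.65 and 5.84 and at 21.9, 20.8 and 22.4 CPM (2.08 ± 0.31, adjusted p = 0.0113). In these genes the Bcl11a-CKO libraries lay nearer to the control values given above than to the Bcl11ab-DCKO values. Ephb1, at 12.1, 12.4 and 14.4 CPM in the Bcl11a-CKO, was under the control values there and above them in the Bcl11ab-DCKO (1.34 ± 0.14, adjusted p = 0.000463).

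Among fallen genes the same comparison set Cacna1e at 85.3, 46.6 and 32.5 CPM in the Bcl11a-CKO against 13, 8.8 and 7.94 CPM (-2.47 ± 0.32, adjusted p = 0.00309). Flrt2 stood at 103, 74.3 and 76.7 CPM against 44.4, 38.8 and 47.4 CPM (-0.96 ± 0.13, adjusted p = 0.0043), and Slc17a7 at 92.8, 66.1 and 56.6 CPM against 34.2, 29 and 29.2 CPM (-1.22 ± 0.16, adjusted p = 0.00309). Other genes were at like levels in both mutants. Fgfbp3 stood at 91.4, 95.9 and 104 and 89.3, 118 and 101 CPM (difference 0.08 ± 0.17, adjusted p = 0.913), Cyfip2 at 577, 504 and 497 and 576, 558 and 642 CPM (difference 0.17 ± 0.08), and Dmrt3 at 11.6, 19.3 and 16.1 and 15.8, 17.9 and 15 CPM (difference 0.05 ± 0.20). A difference that misses the threshold does not show that the mutants were alike. The number of genes called between the mutants was 41, 37 and 52 without Bcl11ab-DCKO 1, 2 or 3, and 63 and 209 without Bcl11a-CKO 2 or 3.

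At E15.5, 2 days later, the same mutant changed 2394 of 14947 genes against its control (16%), with 2 control units and 3 Bcl11ab-DCKO units, where an R and an L library of the same title number were summed as if from 1 embryo. That is an assumption, since the design text gives 3 mice for each group, and without summing 2937 genes were called. Without control unit 1 or 2 at E15.5 the count was 1400 and 1319. The ages share no library. Of the genes that rose at E13.5, 327 also rose at E15.5, which is 57.5% of the E13.5 list and 26.5% of the E15.5 list. Of those that fell, 231 also fell, 47.6% and 19.9%. In the opposite direction 20 risen and 15 fallen genes were called at E15.5. The difference between the ages was called for 579 of 14947 genes (3.87%), 89 of them among the risen and 90 among the fallen genes of E13.5. That count was 309 and 295 without control unit 1 or 2 at E15.5, and 377 without Bcl11ab-DCKO 2 at E13.5.

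Some effects turned around between the ages. Ephb1 rose at E13.5 and at E15.5 stood at 87.1 to 96.4 CPM in the control units and 8.57 to 13.8 CPM in the Bcl11ab-DCKO units (-2.94 ± 0.15, adjusted p = 2e-08). Dpysl4 did the same, at 94.7 to 106 and 48.9 to 73.7 CPM (-0.65 ± 0.14, adjusted p = 0.00527). Tox, a nuclear HMG-box factor of cortical progenitors, rose from 15, 18.5 and 15.1 to 34.4, 39.1 and 44 CPM at E13.5 (1.27 ± 0.16) and at E15.5 was 61.4 to 67.2 CPM in control and 24.5 to 36.8 CPM in Bcl11ab-DCKO units (-1.08 ± 0.16). Pcp4, Flrt2 and Ntng2 went the other way: they fell at E13.5 and rose at E15.5, by 1.59 ± 0.28, 0.92 ± 0.14 and 1.51 ± 0.26. Other effects persisted in 1 direction, as for Gipr (-4.52 ± 0.26 at E15.5), Cnr1 (-1.61 ± 0.11) and Adgra1 (3.58 ± 0.29), or grew, as for Nkd1 (3.11 ± 0.18). Nptx1, Nr4a3 and Cdk6 were called at E13.5 alone and had log2 fold changes of 0.25 ± 0.34, -0.55 ± 0.38 and 0.11 ± 0.17 at E15.5, and the difference between the ages was called for each.

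**Figure D5:**
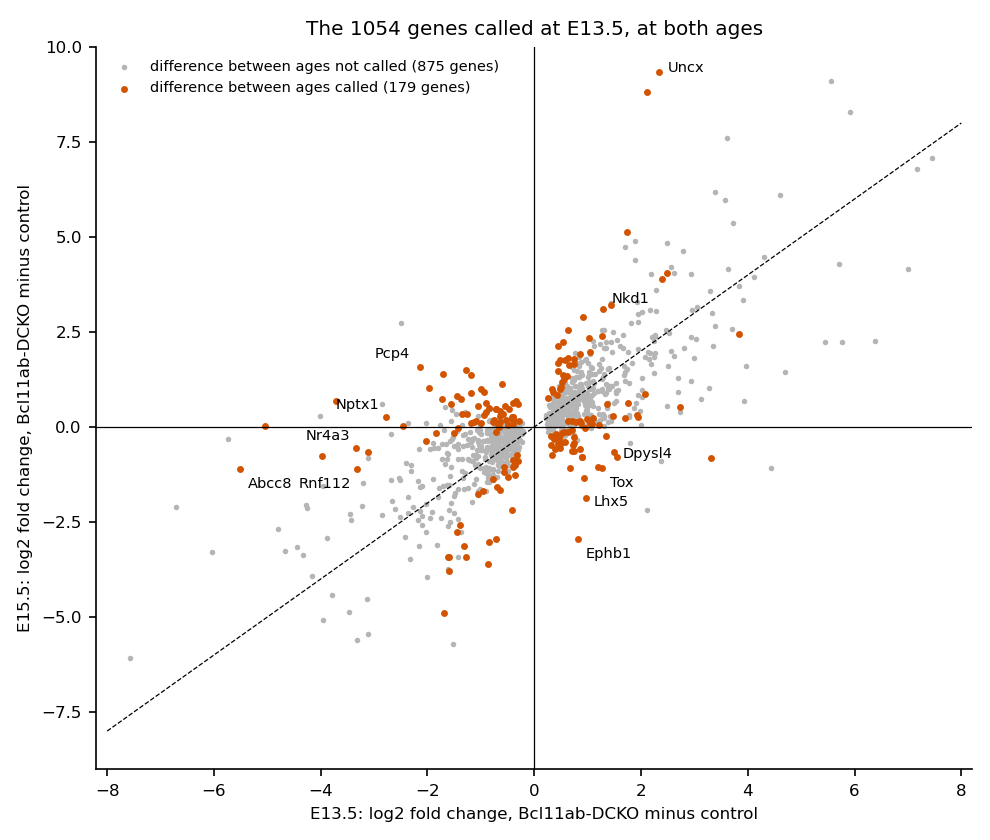
Each point is 1 of the 1054 genes called at E13.5, with its log2 fold change, Bcl11ab-DCKO minus control, at E13.5 on the x axis and at E15.5 on the y axis; the dashed line marks equal effects, and orange points are the 179 genes whose effect differed between the ages by edgeR's test. Most points lie in the lower left and upper right, and those in the other corners include Ephb1, Tox and Dpysl4 (rise, then fall) and Pcp4 (fall, then rise); values of genes with no count in 1 group depend on the prior count of the fit.

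The genes that fell were set against their change with age in Bcl11a-CKO cortex, itself a mutant. Those libraries were in neither group compared, but they shared the fit, its low-count filter and its estimate of the spread. This reading was added after the data were seen. In Bcl11a-CKO cortex, 23.8% of all genes were higher at E15.5 than at E13.5 and 24.4% were lower. Of the 485 fallen genes 276 were higher at E15.5 there (56.9%) and 81 lower (16.7%), with a median log2 change of 0.64 against -0.02 over all genes. Of the 569 risen genes 180 were higher (31.6%) and 203 lower (35.7%), with a median of -0.07. Tiam2 and Gipr, both fallen, are examples: their levels in control cortex ran from 892 to 917 and 184 to 186 CPM at E15.5. Control 2, the library that the first component placed closest to E15.5 among the 6 compared, was the highest control for Tiam2, Gipr, Abcc8, Foxo6 and Jph4, and without it 254 genes fell in place of 485. The fallen count was 299 without Bcl11ab-DCKO 2 and 295 without Bcl11ab-DCKO 3. On that component Bcl11a-CKO 1, of the E13.5 libraries used for the change with age, lay closer to E15.5 than control 2. The part of embryo age in the fallen genes was not tested.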

How the data were processed

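The 18 embryonic libraries (E13.5 and E15.5) came as 1 table of counts per gene for 34745 genes. The deposited values are raw read counts, which the authors made from total RNA of dissected, frozen cortex. HISAT2 2.0.4, StringTie 1.3.0, edgeR and the mm10 build are named in the submitters' processing notes, and neither the annotation nor strandedness is given in the sources used here. Of 119 genes named here, 40 share exonic bases with another gene in GENCODE M21, where reads of the pair cannot be told apart, so their values are less certain: Bcl11a, Cdk4, Cdk6, Cdkn1a, Chd4, Col22a1, Doc2b, Efna3, Eomes, Ephb1, Fgfr3, Fst, Gjd2, Hopx, Hs3st4, Id4, Jun, Kcnh3, Lin28a, Map1a, Metrn, Nefm, Nfia, Notch1, Nr2f1, Nrp1, Ntng2, Pappa2, Pcp4, Reln, Rspo3, Smarcd3, Sv2b, Tgfb2, Tiam2, Tnr, Tox, Tuba1a, Tuba4a and Unc5c.

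Counts were fitted in edgeR 4.0.16 (R 4.3.3) with TMM scaling, its low-count filter and quasi-likelihood tests, in 1 model of 6 groups and 16 units, and p-values were adjusted by Benjamini-Hochberg over 14947 genes. At E15.5, libraries with the same title number were summed into 1 unit. The standard error is the log2 fold change divided by the square root of F. On simulated counts of this comparison (14787 genes), 28.1% of 1.5-fold, 83.6% of 2-fold and 93.8% of 4-fold changes were recovered, with 7 false calls. The simulation gave every gene the same spread and no difference between libraries by sex or title ending. These rates may thus be too favourable for genes that vary more. Depth was 5022955 to 6738798 counts per library.

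Named were the deleted genes, the 15 genes that changed most in each direction whose higher group averaged 5 CPM or more and whose libraries did not overlap, the 10 of these averaging 100 CPM or more, up to 6 called members and the 2 best measured others of each list, and the 6 most different between ages and between mutants in each direction; the text gives a selection of these. Members and lists were chosen with earlier results of these data known. Promoter sequences are from RefSeq (GRCm38.p6). Alternatives were other samples in the fit, RLE scaling, DESeq2 1.42.0, other filters, the title ending, each library left out and, added after the data were seen, the sex of the library. Data from P0 were not analysed here.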

Additional observations from a re-analysis of the deposited data

Results flagged for a closer look

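For the genes below, the effect of losing both factors differed between the ages by edgeR's interaction test (adjusted p under 0.05). The values are the log2 fold change at E15.5 minus that at E13.5. For genes that rose at E13.5, the effect was lower at E15.5 for Ephb1 (-3.75), Tox (-2.35), Dpysl4 (-2.14), Cdh6 (-1.70), Unc5c (-1.61), Kcnh2 (-1.18), Efna3 (-0.79), Pou3f2 (-0.78), Cyfip2 (-0.76), Myo10 (-0.70), Notch1 (-0.68) and Map1a (-0.65). It was higher at E15.5 for Uncx (6.99), Nkd1 (1.82), Sema3c (1.79), Ndst3 (1.32) and Cdh4 (1.07). Uncx had no count in the E15.5 controls, so its value depends on the prior count of the fit.

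For genes that fell at E13.5, the effect was higher, so less of a fall or a rise, at E15.5 for Abcc8 (4.40), Pcp4 (3.73), Nptx1 (3.04), Nr4a3 (2.79), Ntng2 (2.78), Flrt2 (1.85), Cdk6 (1.29), Nrp1 (1.26) and Ephb2 (1.02). The fall was deeper at E15.5 for Camkv (-1.32), Nfia (-0.87), Reln (-0.74) and Map1b (-0.50).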

How the results depend on the processing

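The E13.5 comparison called 614 to 924 genes with 1 library left out, of which 360 to 501 rose and 254 to 423 fell. Under the settings that kept all 6 libraries it called 747 to 1162, and the fallen count moved by over 1.5 times only with the title ending as a term (317). No call was reversed in any of the 15 alternatives, and 434 genes, 256 risen and 178 fallen, were called in all of them. Between the mutants, 37 to 209 genes were called with 1 library left out, 229 by DESeq2, 49 with only libraries whose titles end in 1-8 and 71 with the sex of the library as a term. At E15.5, 1319 to 2361 genes were called with 1 unit left out, and for the difference between the ages 295 to 464. The cause of these changes was not tested, beyond fewer libraries in the fit. The share of fallen genes higher at E15.5 in Bcl11a-CKO ran from 52.8% to 65.9% over the alternatives that gave it, which leave out DESeq2 and the fits of 6 libraries, and that of risen genes from 26.4% to 36.6%.

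No paired analysis was possible because the E13.5 titles carry no number that pairs single libraries of the groups. Their endings mark 2 sets of libraries, and with the ending as a term 747 genes were called. The fits of 6 libraries give no value for the other comparisons. Depth limits genes at a few CPM, whose fold changes rest on few counts, and 1.5-fold changes were mostly missed in the simulation. The controls' alleles, the deleted exons and the meaning of the title endings are not given.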
